A study of Mus musculus with 24 samples.

Results

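The comparison was that of CD8+ T cells of Tcf7 conditional knockout (cKO) mice with those of wild-type (WT) mice before the cells were activated. It was made with the 6 of 24 libraries whose titles give time point 0, 3 from cKO mice 1, 2 and 3 and 3 from WT mice 4, 5 and 6. The cKO animals carried the E8i-cre transgene and Tcf7 alleles flanked by loxP sites (Tcf7FL/FL). The WT animals carried the same floxed alleles without cre, and all 6 carried OTI, a transgenic T cell receptor that recognises a peptide of ovalbumin. E8i is an enhancer of the Cd8 locus that drives cre in mature CD8+ T cells, so cre activity and loss of Tcf7 cannot be told apart here. Cells came from spleen and lymph nodes by magnetic selection for CD8, and 1000 cells were sorted for each library. The 0 h cells were taken before plating; the later ones had been kept on plates coated with anti-CD3 and anti-CD28, with murine IL2 added. The labels state neither the markers of the sort nor an age. RNA was made into libraries with Smart-seq2, which covers whole transcripts and does not mark the strand. The other 18 libraries are from the same 6 mice at 4, 8 and 24 h after plating.

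Tcf7 encodes TCF1, a DNA-binding factor of the TCF and LEF family that works with beta-catenin or with Groucho co-repressors. In CD8+ T cells it is known for keeping naive and stem-like memory cells and for holding back effector genes. The series title joins TCF1 to the chemokine receptor CXCR6 and to co-stimulation through CD28, and at 0 h the cells have met neither of the plate-bound antibodies.

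The 6 libraries held 6308908 to 9637768 expected counts, within the range of all 24 (5846265 to 9700397). Several measures of the libraries moved with genotype at 0 h. A count was found for 16178 to 16884 genes in cKO and 16999 to 17168 in WT libraries. The ribosomal RNA gene Rn45s took 16.2 to 17.2% of all counts in cKO and 17.9 to 18.9% in WT. Of the counts other than Rn45s, 81 ribosomal protein genes took 13.8 to 14.7% in cKO and 15.3 to 15.5% in WT. Neither share overlapped between the groups, and their part in the results was not tested, except that with Rn45s removed 49 of the 51 calls below were kept. The first principal component of the 6 libraries held 27.6% of the variance. On it the cKO libraries of mice 1, 2 and 3 lay at −29.1, −17.6 and 1.18 and the WT libraries of mice 4, 5 and 6 at 21.7, 9.52 and 14.3, so cKO mouse 3 lay nearest to WT.

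Tcf7 RNA, counted over the whole gene, was not lower at 0 h in the libraries labelled cKO. Its level was 685, 681 and 719 TPM (a level scaled for transcript length and library size) in cKO mice 1, 2 and 3, against 567, 552 and 499 TPM in WT mice 4, 5 and 6. The 3 cKO values were above the 3 WT values, with a log2 fold change of 0.33 (SE 0.117, edgeR adjusted p = 0.386). With only the 6 libraries in the fit, or with no filter on low counts, Tcf7 was called higher in cKO (adjusted p = 0.0114 and 0.00471). At later times the mean of Tcf7 was 262 TPM in cKO and 192 TPM in WT at 4 h, and 103 and 73.8 TPM at 8 h. At 24 h Tcf7 was lower in cKO, at 35.7 to 38.3 TPM against 62.6 to 77.0 TPM in WT. The files count 1 Tcf7 transcript as a whole, so a deleted exon is not checked by these values and groups are named by their labels. Lef1, the partner factor of the same family, was at 479, 529 and 543 TPM in cKO, against 386, 513 and 399 TPM in WT (log2 0.26, SE 0.101, adjusted p = 0.476). Over the list of 16 tested TCF, LEF and Wnt pathway genes none was called, at a median log2 fold change of −0.04 that changed sign without mouse 3 (0.12) or mouse 4 (0.06), and Axin2, a common target of beta-catenin, was at 2.70, 3.42 and 3.36 TPM in cKO, against 4.49, 3.89 and 2.92 TPM in WT (adjusted p = 0.922).

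Of 11470 genes tested by edgeR's quasi-likelihood test, 51 were called at an adjusted p under 0.05, which is 0.445% of those tested. They were 36 higher in cKO (0.314%) and 15 lower (0.131%), and 16 of the higher and 10 of the lower differed at least 2-fold. The groups did not overlap in scaled counts for any of the 51. These genes were picked by p-value, so the lack of overlap is no added support, and its share over all genes was not counted. At an unadjusted p under 0.05 there were 845 genes, and the median log2 fold change of all genes tested was −0.0039. Values are fitted log2 fold changes of cKO over WT with a standard error (SE), and levels are TPM. When the 0 h library of each mouse was left out in turn, the count of calls ran from 20 without mouse 4 to 85 without mouse 3, with 24, 32, 26 and 27 without mice 1, 2, 5 and 6. The sign of all 51 differences held in those 6 fits. The 10 genes called in each of the 6 fits were Fasl, Cxcr6, Dennd5a, Coro2a, Nrp1, Car2, Itgae and Nt5e among those higher in cKO, and Pdlim4 and 5830411N06Rik among those lower. The other 41 lost the call in 1 or more fits.

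**Figure D1:**
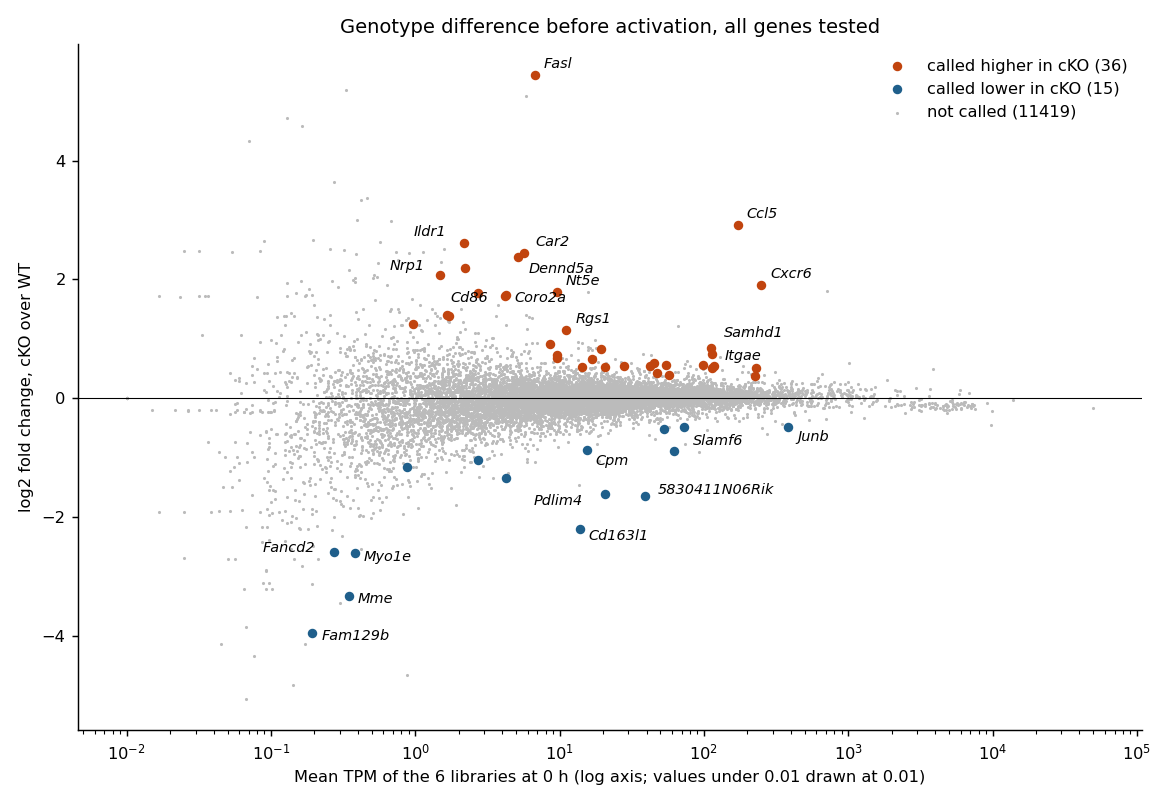
Log2 fold change of cKO over WT at 0 h (y axis) against the mean TPM of the 6 libraries (x axis, log) for the 11470 genes tested, each a point, with the 36 called higher, the 15 called lower and the rest coloured apart. Fasl stands highest among the called genes at 5.44, Cxcr6 and Ccl5 combine a level above 100 TPM with log2 differences of 1.90 and 2.91, and 5 of the lower genes lie under 1 TPM.

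Cxcr6, the receptor for the chemokine CXCL16 and a gene of effector and tissue-resident CD8+ T cells (chromosome 9, 123806475 to 123811760, plus strand, mm10), stood at 432, 395 and 362 TPM in cKO mice 1, 2 and 3, against 108, 84.4 and 118 TPM in WT mice 4, 5 and 6. The lowest cKO library lay far above the highest WT library, and the log2 difference was 1.90 (SE 0.129, adjusted p = 4.96e-11). Its ligand Cxcl16 was near the floor in T cells, at 0.07 to 0.60 TPM in cKO and 0.44 to 0.90 TPM in WT (adjusted p = 0.788). Fyco1, which overlaps Cxcr6 on the other strand, did not pass (log2 −0.22, adjusted p = 0.849). Among the 12 tested chemokine receptors Cxcr6 was the 1 called, and Cxcr5 (log2 −0.75), Xcr1 (0.55) and Ccr4 (−0.81) were not called (adjusted p = 0.63, 0.717 and 0.739). In bulk RNA, more cells that express a gene and more RNA per cell cannot be told apart, and this holds for each gene named.

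Fasl, the membrane ligand that triggers death through FAS (chromosome 1, 161780689 to 161788495, minus strand), was near absent in WT cells and present in cKO cells. It was at 13.4, 15.1 and 10.8 TPM in cKO, against 0.14, 0.11 and 0.63 TPM in WT. These levels rest on 393 counts in the 3 cKO libraries and 7 in the 3 WT libraries. The log2 difference was 5.44 (SE 0.382, adjusted p = 2.49e-12), the largest among the called genes, and it ran from 5.00 to 6.59 with 1 library left out. Ccl5, a chemokine that memory and effector CD8+ T cells store, was at 479, 228 and 206 TPM in cKO, against 33.9, 42.2 and 41.6 TPM in WT. Mouse 1 stood highest, and the log2 difference was 2.91 (SE 0.460, adjusted p = 0.0071), which was not called without mouse 4 (adjusted p = 0.0569). On the list of cytotoxic granule genes and death ligands Fasl was the 1 called of 18 tested. Of these 14 had a positive value, at a median of 0.18 (0.15 to 0.26 with 1 library left out). Granzyme B (Gzmb) was at 1.91, 1.69 and 0.72 TPM in cKO, against 0.58, 0.29 and 0.51 TPM in WT (log2 1.67, SE 0.736, adjusted p = 0.61). Perforin (Prf1), the pore protein of the granules, was at 99.6, 90.5 and 95.9 TPM in cKO, against 60.9, 63.4 and 68.6 TPM in WT (log2 0.53, SE 0.189, adjusted p = 0.42). The list members Ctsw (0.29), Nkg7 (0.31) and Gnptab (−0.53, the lowest of the list) also fell short of the threshold. Fasl and Ccl5 are also genes of NK cells, whose 6 markers summed to 9.88 to 13.4 TPM in cKO and 6.24 to 9.24 TPM in WT. Of these Klra8 and Klra4 were listed at 0 in all 6 libraries and Ncr1 at 0 in the cKO libraries, while Eomes and Gzma, which T cells also express, made up most of the sum. Their part in the result was not tested.

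The start regions of 5 genes are shown. Fasl, Cxcr6 and Dennd5a had the smallest adjusted p-values, and Cd163l1 and 5830411N06Rik are neighbours that were both lower; the set was chosen after the values were seen. Each is the 250 bases before the start of the gene in RefSeq (build GRCm38.p6, the assembly that mm10 names), written along the gene's strand. The gene spans printed in other paragraphs are from the GENCODE annotation. Its starts can differ from those of RefSeq, so the windows of Cxcr6 and 5830411N06Rik run into these spans. Capitals mark the letters CTTTGA or, on the other strand, TCAAAG, the core that TCF and LEF factors bind. The regions are chr9:123806227-123806476 (plus strand) for Cxcr6, chr1:161788496-161788745 (minus) for Fasl, chr7:109960471-109960720 (minus) for Dennd5a, chr7:140218017-140218266 (plus) for Cd163l1 and chr7:140247051-140247300 (plus) for 5830411N06Rik. The table holds 1 start for Cxcr6, Fasl and Cd163l1, 2 for Dennd5a and 3 for 5830411N06Rik, of which the first listed is shown.
Cxcr6: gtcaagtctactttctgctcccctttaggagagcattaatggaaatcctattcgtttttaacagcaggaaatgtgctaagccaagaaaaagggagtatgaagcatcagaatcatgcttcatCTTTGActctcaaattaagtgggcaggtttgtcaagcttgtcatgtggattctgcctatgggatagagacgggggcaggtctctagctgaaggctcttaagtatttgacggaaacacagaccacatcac
Fasl: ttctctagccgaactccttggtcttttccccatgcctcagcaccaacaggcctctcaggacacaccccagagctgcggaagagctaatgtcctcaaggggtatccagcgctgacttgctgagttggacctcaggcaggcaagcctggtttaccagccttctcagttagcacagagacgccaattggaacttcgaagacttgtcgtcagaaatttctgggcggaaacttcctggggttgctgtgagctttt
Dennd5a: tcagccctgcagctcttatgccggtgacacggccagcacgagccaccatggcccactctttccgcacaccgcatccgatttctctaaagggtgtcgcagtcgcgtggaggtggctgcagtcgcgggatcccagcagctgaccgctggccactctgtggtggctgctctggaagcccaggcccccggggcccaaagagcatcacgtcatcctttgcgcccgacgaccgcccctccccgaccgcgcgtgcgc
Cd163l1: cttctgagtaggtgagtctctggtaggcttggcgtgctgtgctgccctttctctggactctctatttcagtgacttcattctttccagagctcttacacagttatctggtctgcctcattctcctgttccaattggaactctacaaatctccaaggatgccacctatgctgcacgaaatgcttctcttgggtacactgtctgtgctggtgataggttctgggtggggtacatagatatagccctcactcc
5830411N06Rik: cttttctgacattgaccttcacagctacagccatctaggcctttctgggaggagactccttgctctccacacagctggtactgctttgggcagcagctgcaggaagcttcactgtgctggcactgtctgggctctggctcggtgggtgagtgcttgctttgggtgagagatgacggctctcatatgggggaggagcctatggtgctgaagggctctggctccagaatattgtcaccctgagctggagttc

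Cxcr6 held 1 match, whose first base lies 129 bases before the start, and the other 4 windows held none. The letters were found in 12.7% of the 8546 tested genes with a window in the table. They were found in 2 of 26 genes called higher (7.69%, Cxcr6 and Nrp2) and in 1 of 12 called lower (8.33%, Mme). The longer form CTTTGAT, which contains the shorter one, was found in 2.68% of the 8546 genes and among the called genes in Nrp2 alone. A gene with several starts was counted once, by a match in any of its windows. A match is a run of letters in this window and says nothing of binding.

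Of the tissue residency list, 3 genes besides Cxcr6 rose. Itgae, the alpha chain of the integrin CD103 that binds E-cadherin on epithelium, was at 155, 130 and 148 TPM in cKO, against 99.4, 76.5 and 77.7 TPM in WT (log2 0.74, SE 0.118, adjusted p = 0.000706). Nt5e, the surface enzyme CD73 that makes adenosine from AMP, was at 17.4, 16.5 and 11.1 TPM in cKO, against 2.72, 5.36 and 4.59 TPM in WT (log2 1.78, SE 0.284, adjusted p = 0.00254). Rgs1, which dampens G protein signals from chemokine receptors, was at 16.7, 12.8 and 16.9 TPM in cKO, against 4.77, 4.69 and 10.9 TPM in WT (log2 1.15, SE 0.215, adjusted p = 0.00715). WT mouse 6 stood closest to the cKO libraries for Rgs1, and the call was lost without mouse 1, 4 or 5 (adjusted p at most 0.0775). Of the 13 tested residency genes these 4, Cxcr6 included, were called higher and none lower. Of all genes tested 0.314% were called higher and 0.131% lower, and the list was chosen with earlier results of these data known. The median of the list was 0.43. It fell to 0.02 without mouse 2 and 0.03 without mouse 5, to 0.21 without mouse 4 and to 0.25 without mouse 3. The next members by p did not pass and did not share a sign, with P2rx7 at −0.85, Inpp4b at −0.29, Rgs2 at 0.43 and Cdh1 at 0.61. Cd69, which retains cells in tissue, had 137, 213 and 153 TPM in cKO, against 152, 162 and 168 TPM in WT, and the groups overlapped (log2 0.02, adjusted p = 0.992). The transcription factor Runx3 overlapped likewise (log2 −0.02, adjusted p = 0.993).

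**Figure D2:**
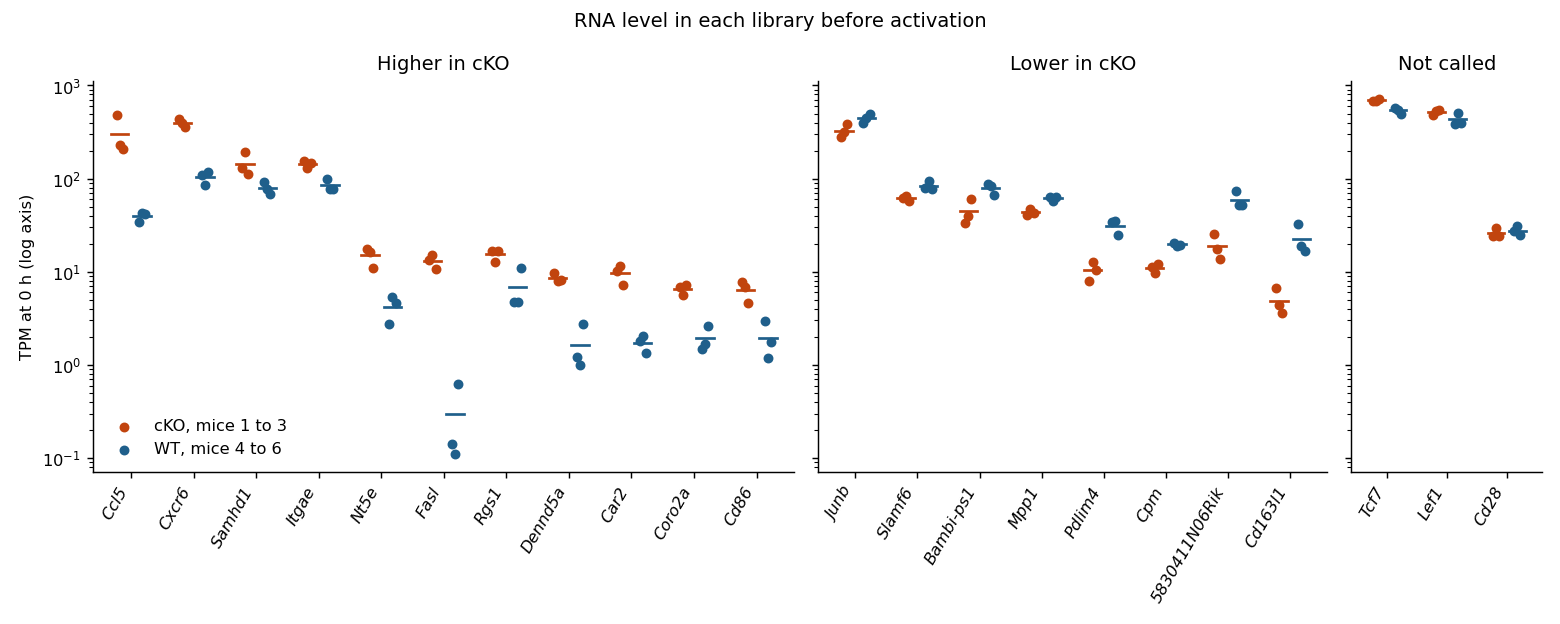
TPM of each library at 0 h (points, log axis) for called genes higher in cKO, called genes lower in cKO and 3 genes that were not called, with the mean of each group as a bar. The called genes were picked by p-value, and the cKO and WT points are apart for each of them, by most for Fasl. Tcf7 is not lower in cKO at this time.

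Several called genes code for surface proteins. Nrp1 and Nrp2, co-receptors for semaphorins and VEGF, both rose. Nrp1 was at 2.35, 2.37 and 2.49 TPM in cKO, against 0.57, 0.66 and 0.43 TPM in WT (log2 2.07, SE 0.290, adjusted p = 4.92e-05). Nrp2 was at 6.57, 2.76 and 3.45 TPM in cKO, against 0.59, 1.79 and 1.22 TPM in WT (log2 1.78, adjusted p = 0.0242), which was not called without mouse 1, 4 or 6 (up to 0.43). Cd86, a ligand of CD28 and CTLA4 best known from antigen-presenting cells, was at 7.69, 6.86 and 4.66 TPM in cKO, against 2.94, 1.18 and 1.75 TPM in WT (log2 1.72, SE 0.341, adjusted p = 0.00792), lost without mouse 1, 5 or 6 (up to 0.114). Its fellow ligand Cd80 was listed at 0 in 5 of the 6 libraries. Cd28 itself was at 24.1, 29.5 and 23.9 TPM in cKO, against 27.1, 30.7 and 25.0 TPM in WT, which overlapped (log2 −0.13, SE 0.175, adjusted p = 0.95). Of the 9 tested genes of the CD28 family and its ligands Cd86 was the 1 called, and Ctla4 (1.23), Icosl (0.95), Cd274 (0.43) and Btla (0.13) came next by p. Markers of B cells and myeloid cells, which also make Cd86, were mixed. B cell markers summed to 44.4 to 54.6 TPM in cKO and 33.9 to 38.7 TPM in WT, nearly all of it Cd79b, while Ebf1 was at 0 throughout and Pax5 was at 0.30 TPM or less. Monocyte and macrophage markers summed to 2.21 to 3.65 TPM in cKO and 2.94 to 4.92 TPM in WT, and dendritic cell markers to 3.64 to 6.76 TPM in cKO and 3.75 to 5.56 TPM in WT. Their part in the Cd86 result was not tested.

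Tnfrsf1b, the TNF receptor that lacks a death domain, was at 29.7, 23.5 and 20.0 TPM in cKO, against 15.96, 17.6 and 16.5 TPM in WT (log2 0.52, adjusted p = 0.0291). Cd55, which protects cells from complement, was at 51.1, 50.7 and 51.1 TPM in cKO, against 30.2, 37.8 and 34.8 TPM in WT (log2 0.53, adjusted p = 0.0466). The immunoglobulin-like membrane proteins Igsf3 (log2 1.39, 2.47 ± 0.215 TPM in cKO and 0.947 ± 0.444 TPM in WT) and Ildr1 (log2 2.61, 3.78 ± 0.836 TPM in cKO and 0.577 ± 0.422 TPM in WT) rose too (SD, n = 3 each; adjusted p = 0.00508 and 0.0055). Aplp2, a relative of the amyloid precursor protein, was at 17.7, 14.9 and 18.9 TPM in cKO, against 10.6, 11.5 and 12.7 TPM in WT (log2 0.53, adjusted p = 0.0495). These 5 calls were each lost in at least 1 of the fits without a library, Igsf3 without mouse 5 and Ildr1 without mouse 4 (adjusted p = 0.0775 and 0.0651). Tnfrsf1b was called without mouse 3 only, Aplp2 without mouse 2 only and Cd55 in none of the 6 (adjusted p at most 0.441, 0.301 and 0.326).

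Other called genes have known roles in membrane traffic, the cytoskeleton or metabolism. Dennd5a, a DENN-domain protein that binds the Golgi GTPase RAB6 (chromosome 7, 109893780 to 109960470, minus strand), was at 9.76, 8.05 and 8.20 TPM in cKO, against 1.21, 0.99 and 2.74 TPM in WT (log2 2.38, SE 0.190, adjusted p = 3.30e-10). Coro2a, a coronin that binds actin, was at 6.81, 5.56 and 7.21 TPM in cKO, against 1.49, 1.68 and 2.61 TPM in WT (log2 1.73, SE 0.234, adjusted p = 2.62e-05). Car2, a cytosolic carbonic anhydrase, was at 10.3, 11.5 and 7.13 TPM in cKO, against 1.81, 2.05 and 1.33 TPM in WT (log2 2.44, SE 0.353, adjusted p = 9.06e-05). The groups did not overlap in these 3 genes, as in each of the 51 called genes. Each of the 3 calls held in all 16 alternative settings.

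Stx1a, a syntaxin of the SNARE fusion machinery, was at 25.1, 24.7 and 25.0 TPM in cKO, against 13.4, 14.2 and 13.6 TPM in WT (log2 0.83, SE 0.174, adjusted p = 0.0146). It was the 1 gene called of 17 tested SNARE and traffic genes, whose median was 0.07, against 0.0038 without mouse 1 and 0.12 without mouse 3. Ehd1, an ATPase of endocytic recycling, was at 53.5, 53.6 and 56.4 TPM in cKO, against 44.9, 37.3 and 37.1 TPM in WT (log2 0.42, adjusted p = 0.00755). Golm1, a Golgi membrane protein, was at 62.9, 64.0 and 69.2 TPM in cKO, against 38.9, 46.3 and 44.4 TPM in WT (log2 0.56, adjusted p = 0.0055). The spread within each genotype was small beside the differences, yet Stx1a lost the call without any mouse but 3 (adjusted p at most 0.0877), Ehd1 without mouse 5 or 6 (0.0878) and Golm1 without mouse 4 (0.0773).

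Smaller increases were those of Sh3bp5, which activates the recycling GTPase RAB11, and the tropomyosin Tpm4. Sh3bp5 was at 105, 127 and 122 TPM in cKO, against 78.1, 82.1 and 76.0 TPM in WT (log2 0.55, adjusted p = 0.0183). Tpm4 was at 258, 257 and 256 TPM in cKO, against 181, 177 and 220 TPM in WT (log2 0.38, adjusted p = 0.0442). Clic4, named as an intracellular chloride channel protein, was at 9.59, 16.03 and 10.8 TPM in cKO, against 7.49, 7.67 and 6.41 TPM in WT (log2 0.73, adjusted p = 0.0115). Rcn3, a calcium-binding protein of the endoplasmic reticulum, was at 147, 131 and 140 TPM in cKO, against 87.5, 95.5 and 97.8 TPM in WT (log2 0.54, adjusted p = 0.0312). All 4 calls depended on single libraries, with adjusted p-values of up to 0.131 for Sh3bp5 (lost without mouse 2, 4, 5 or 6), 0.339 for Tpm4 (mouse 1, 2, 4 or 5), 0.237 for Clic4 (mouse 2, 4 or 6) and 0.225 for Rcn3 (any mouse but 3).

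Some called genes code for enzymes of DNA, RNA and nucleotides. Samhd1, which breaks down dNTPs and is induced by interferon, was at 129, 192 and 112 TPM in cKO, against 91.2, 76.6 and 69.1 TPM in WT (log2 0.85, SE 0.168, adjusted p = 0.0273). Trex1, an exonuclease that clears DNA from the cytosol, was at 56.6, 57.4 and 49.6 TPM in cKO, against 36.1, 38.5 and 30.8 TPM in WT (log2 0.60, adjusted p = 0.0312), and its neighbour Atrip, which it overlaps on the same strand, was level (log2 0.04, adjusted p = 0.982). Lig1, the DNA ligase of replication, was at 15.6, 8.67 and 11.7 TPM in cKO, against 6.83, 7.39 and 7.66 TPM in WT (log2 0.68, adjusted p = 0.00957). For Samhd1 mouse 2 was highest and for Lig1 mouse 1. The calls were lost without mouse 1, 5 or 6 for Samhd1 (up to 0.148), without any mouse but 3 for Trex1 (up to 0.228) and without mouse 1, 4 or 5 for Lig1 (up to 0.298).

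The spliceosomal helicase Aqr was at 31.6, 33.8 and 34.4 TPM in cKO, against 18.8, 24.2 and 24.0 TPM in WT (log2 0.54, adjusted p = 0.00891, lost without mouse 4, 0.154). The nucleolar helicase Ddx50 was at 64.4, 64.4 and 69.2 TPM in cKO, against 48.6, 51.1 and 48.4 TPM in WT (log2 0.38, adjusted p = 0.0442). Mina, listed as Riox2 in RefSeq and a hydroxylase of a ribosomal protein, was at 139, 135 and 134 TPM in cKO, against 90.9, 97.8 and 91.0 TPM in WT (log2 0.51, adjusted p = 0.0178). For both Mina and Ddx50 the WT libraries lay within a narrow band below the cKO libraries. Their calls were lost without mouse 1, 2, 4 or 6 for Mina (up to 0.112) and without any mouse but 3 for Ddx50 (up to 0.209).

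Among the rest, Dap, a death-associated protein that restrains autophagy, was at 299, 242 and 279 TPM in cKO, against 195, 188 and 180 TPM in WT (log2 0.51, adjusted p = 0.0259). Ndrg1, a gene of stress and hypoxia, was at 12.1, 8.08 and 13.7 TPM in cKO, against 5.68, 6.89 and 4.84 TPM in WT (log2 0.91, adjusted p = 0.0312). Aim1 was at 22.3, 21.0 and 18.9 TPM in cKO, against 12.2, 13.3 and 13.0 TPM in WT (log2 0.66, adjusted p = 0.0317). Each lost its call without several of the mice (adjusted p up to 0.232, 0.216 and 0.225). Wdr95 (log2 2.19, adjusted p = 0.00957, up to 0.116 without mouse 4 or 6) and the gene models 5430427O19Rik (1.40, adjusted p = 0.0412) and 1700025G04Rik (1.25, adjusted p = 0.0373) rose at means under 4 TPM in both groups; the gene models were named after their values were seen.

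The decreases included a pair of neighbouring scavenger receptor genes of T cells. They are Cd163l1 and 5830411N06Rik, which RefSeq lists with the synonyms Scart1 and Scart2 and which are best known from gamma delta T cells. The pair lies on chromosome 7 with 16138 bases and no other matched gene between them. The gene model 5830411N06Rik, named here after its values were seen (chromosome 7, 140247284 to 140300736, plus strand), was at 25.7, 17.6 and 13.8 TPM in cKO, against 74.4, 52.0 and 51.7 TPM in WT (log2 −1.65, SE 0.228, adjusted p = 0.000451). Cd163l1 was at 6.69, 4.43 and 3.60 TPM in cKO, against 32.2, 18.7 and 16.8 TPM in WT (log2 −2.21, SE 0.454, adjusted p = 0.0379). Mouse 1 was the highest of the cKO libraries and mouse 4 the highest of the WT libraries for both genes. The call of Cd163l1 was lost without any 1 library (adjusted p at most 0.213), and that of 5830411N06Rik held in 15 of 16 alternative settings. Sox13, another gamma delta T cell marker, was at 0.59, 0.99 and 0.41 TPM in cKO, against 2.01, 1.91 and 1.84 TPM in WT without passing (log2 −1.52, adjusted p = 0.34). The 3 gamma delta markers in the files summed to 4.11 to 7.35 TPM in cKO and 18.9 to 34.5 TPM in WT, most of it Cd163l1 itself. Whether such cells contributed was not tested.

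Pdlim4, a PDZ and LIM protein of actin fibres, was at 7.87, 12.8 and 10.4 TPM in cKO, against 34.1, 34.7 and 24.6 TPM in WT (log2 −1.62, SE 0.242, adjusted p = 0.000134), and it was the 1 gene called lower in all 16 alternative settings. Slamf6, a SLAM family receptor that marks naive and stem-like CD8+ T cells, was at 61.7, 64.5 and 57.5 TPM in cKO, against 79.2, 94.7 and 77.4 TPM in WT (log2 −0.48, SE 0.098, adjusted p = 0.00952, lost without mouse 3 or 5, up to 0.15). Junb, an AP-1 subunit, was at 280, 313 and 383 TPM in cKO, against 392, 446 and 490 TPM in WT (log2 −0.48, SE 0.094, adjusted p = 0.0071). The highest cKO library, mouse 3, lay just under the lowest WT library for Junb, and the call was lost without mouse 1 or 6 (up to 0.127).

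Cpm, a membrane carboxypeptidase, was at 11.2, 9.66 and 12.1 TPM in cKO, against 20.6, 19.1 and 19.5 TPM in WT (log2 −0.88, adjusted p = 0.00715, lost without mouse 2 or 4, up to 0.0638). The scaffold protein gene Mpp1 was at 41.1, 47.7 and 42.2 TPM in cKO, against 63.3, 57.3 and 63.4 TPM in WT (log2 −0.52, adjusted p = 0.0312). Bambi-ps1, a processed pseudogene of the TGF-beta pseudoreceptor Bambi, was at 33.7, 39.9 and 59.8 TPM in cKO, against 87.8, 84.1 and 66.7 TPM in WT (log2 −0.89, adjusted p = 0.0291). Reads of such a copy can be split with its parent gene by the counting, so its value is uncertain. Bambi itself averaged 0.20 TPM over the 6 libraries (log2 −0.31, edgeR adjusted p = 0.974), against 62.0 TPM for Bambi-ps1. Mpp1 lost the call without any mouse but 2 (up to 0.208) and Bambi-ps1 without mouse 1, 2, 4 or 5 (up to 0.225).

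The other 7 genes called lower were under 10 TPM in both groups. Zfp296, a zinc finger protein, averaged 2.37 ± 1.41 TPM in cKO and 6.07 ± 1.27 TPM in WT, and the ceramide synthase Cers6 averaged 1.83 ± 0.676 TPM in cKO and 3.63 ± 0.707 TPM in WT (SD, n = 3 each; adjusted p = 0.018 and 0.0212). The cadherin receptor Celsr2 averaged 0.547 ± 0.126 TPM in cKO and 1.21 ± 0.208 TPM in WT (adjusted p = 0.0442). Mme (the peptidase neprilysin), Myo1e (a class I myosin), Fancd2 (of the Fanconi DNA repair pathway) and Fam129b (Niban2 in RefSeq) rested on few reads. Mme had 4 counts in the 3 cKO libraries and 37 in the 3 WT libraries, Myo1e 8 and 42, Fancd2 6 and 32, and Fam129b 1 and 18. For Fam129b this is a WT over cKO ratio of 21.8 with a 95% interval of 3.44 to 907 that covers counting error only. Each of these 7 calls was lost in 2 or more of the fits without a library (adjusted p up to 0.649).

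Lists of genes by function gave few calls beyond those named. Against 0.445% of all genes tested and a median of −0.0039, the memory phenotype list had 2 of 20 called higher (Fasl and Ccl5), none lower, and a median of 0.32, which was 0.18 without mouse 1. The Ly6c pair of this list stood high without passing. Ly6c2, a surface protein of memory-phenotype CD8+ T cells, was at 1625, 1149 and 548 TPM in cKO, against 258, 283 and 392 TPM in WT (log2 1.80, SE 0.541, adjusted p = 0.27). Ly6c1, its near-identical neighbour with which reads may be shared, was at 38.2, 26.3 and 9.49 TPM in cKO, against 4.59, 7.62 and 7.93 TPM in WT (log2 1.79, SE 0.427, adjusted p = 0.0587). Il18r1, a chain of the IL-18 receptor, was at 20.9, 17.0 and 14.4 TPM in cKO, against 10.6, 8.66 and 9.05 TPM in WT (log2 0.85, SE 0.214, adjusted p = 0.0628). Mouse 1 was highest and mouse 3 lowest among the cKO libraries in all 3, and over the 20 genes of the list mouse 1 held the highest value of the 6 libraries in 12 and mouse 3 in none. Mouse 3 was above each WT library for these 3 genes.

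The naive and stem-like list had 1 of 22 called, Slamf6, and a median of 0.06, which was 0.12 without mouse 4, 0.09 without mouse 1 and 0.02 without mouse 6. Ccr7, a chemokine receptor of lymph node homing, was at 958, 1034 and 992 TPM in cKO, against 962, 983 and 818 TPM in WT (log2 0.08, adjusted p = 0.913). Il7r, the IL-7 receptor chain of naive and memory cells, was at 270, 242 and 241 TPM in cKO, against 206, 222 and 180 TPM in WT (log2 0.28, adjusted p = 0.879). Ly6c1, named above for the memory phenotype list, is a member of this list too and has its highest value (1.79). Igfbp4 (−0.60), Bach2 (−0.34) and Dapl1 (−0.36) came next by p after Ly6c1 and did not pass (adjusted p = 0.0784, 0.153 and 0.257). Ccr7 and Il7r were singled out after their values were seen. None of 26 transcription factors of effector and memory fate was called (median −0.14, but −0.03 without mouse 4, −0.09 without mouse 1 and −0.23 without mouse 2), Eomes at 9.27, 3.12 and 6.30 TPM in cKO, against 3.77, 4.26 and 3.67 TPM in WT and Tbx21 at 2.80, 5.08 and 2.99 TPM in cKO, against 3.23, 4.55 and 5.50 TPM in WT being among the genes that overlapped.

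The immediate early list of AP-1, EGR and NR4A factors, which T cells induce within minutes of receptor signals, had Junb as its 1 called gene of 26, with 18 members at a negative value and a median of −0.22. Without mouse 2 the median was −0.12, and 10 members were positive, against 7 with all libraries. Egr1 was at 12.5, 17.9 and 23.0 TPM in cKO, against 23.4, 27.1 and 26.6 TPM in WT (log2 −0.58, SE 0.174, adjusted p = 0.245), and Egr2 (−0.46), Egr3 (−1.51) and Nr4a1 (−0.39) followed. Tnf, of the secreted cytokine list (no call in 11), was at 8.71, 8.22 and 6.22 TPM in cKO, against 10.1, 14.6 and 9.16 TPM in WT (log2 −0.57, adjusted p = 0.257), and its relative Tnfsf14 was at 5.05, 5.06 and 2.56 TPM in cKO, against 6.84, 6.90 and 9.97 TPM in WT (log2 −0.89, SE 0.213, adjusted p = 0.0596). The 22 genes of T cell receptor signalling and CD8 had no call and lay between −0.19 and 0.20, with Cd8a at 407, 416 and 391 TPM in cKO, against 388, 442 and 425 TPM in WT. The TGF-beta list had no call in 15 genes, and its gene of smallest p was Smad3, at 14.8, 17.2 and 18.9 TPM in cKO, against 10.9, 12.5 and 10.6 TPM in WT (log2 0.54, SE 0.142, adjusted p = 0.0784).

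Interferon-stimulated genes were highest in 1 cKO animal. Of 26 tested, 25 had a positive log2 value, with a median of 0.30, and Samhd1 was the 1 called. The cKO library of mouse 2 held the highest value of the 6 in 25 of the 26 genes. Oasl2, of the antiviral OAS family, was at 19.4, 36.7 and 14.6 TPM in cKO, against 12.3, 11.4 and 11.6 TPM in WT (log2 0.98, adjusted p = 0.215), and Irf7, a factor of the interferon response, at 112, 149 and 88.2 TPM in cKO, against 90.8, 77.9 and 76.7 TPM in WT (log2 0.49, adjusted p = 0.405). Without mouse 2 the median was −0.03 and 12 of 26 were positive, and without mouse 3 it was 0.50. Genes of MHC class I presentation had no call in 20, a median of 0.12 and mouse 2 highest in 14. Without mouse 2 that median was −0.0007 with 10 of 20 positive, against 18 of 20 with all libraries, and without mouse 3 it was 0.24. The S phase list had Lig1 as its 1 call in 24 and a median of 0.17, which was 0.05 without mouse 1 and 0.30 without mouse 3. Mouse 1 held the highest value in 12 of the 24. The replication helicase genes Mcm6 (0.28), Mcm5 (0.30), Mcm3 (0.24) and Mcm4 (0.24) came next by p and were not called (adjusted p = 0.215 or more). Of 78 tested ribosomal protein genes none was called, yet 75 had a negative value, at a median of −0.12. Of all genes tested 48.98% had a positive value. The ribosomal protein values are another view of the lower share of counts in cKO given above, not a separate result.

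**Figure D3:**
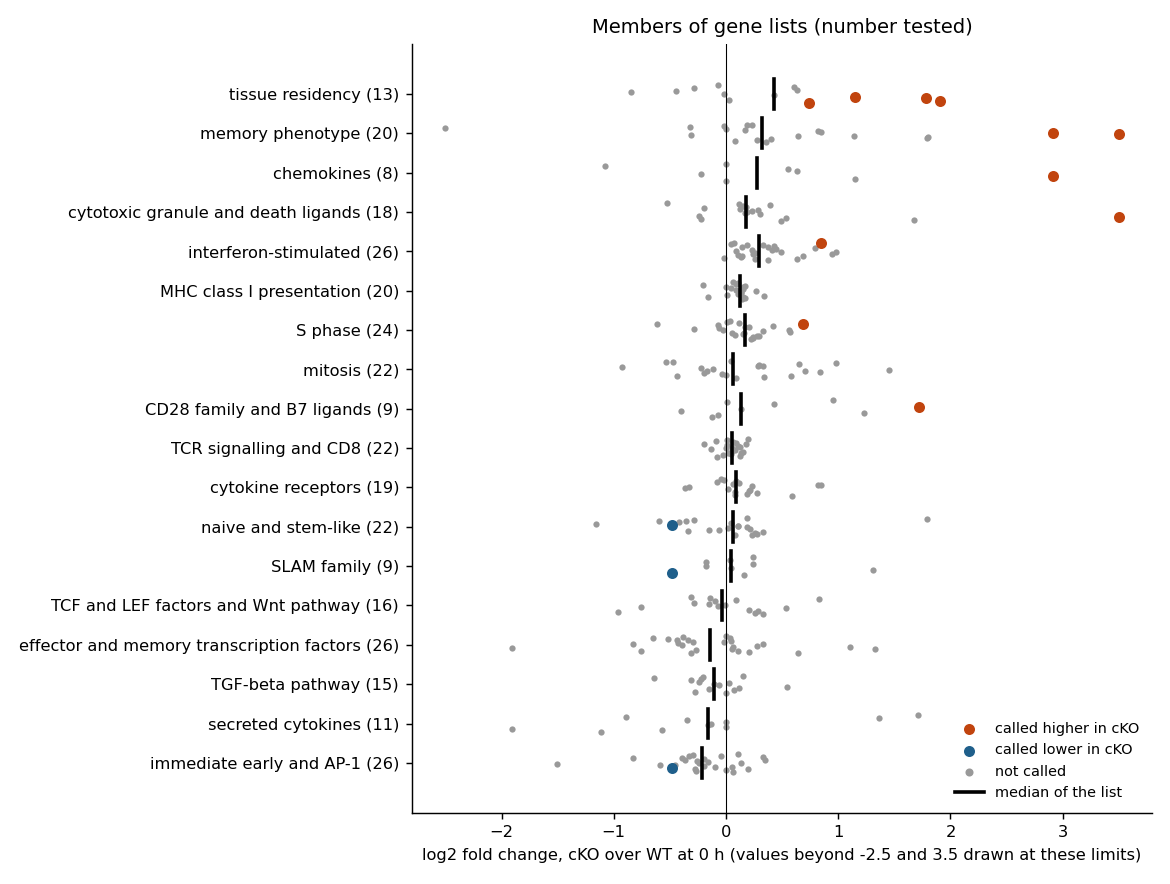
Log2 fold change of cKO over WT at 0 h for the tested members of 18 gene lists, 1 point a gene, with called genes in colour and the median of each list as a bar. The lists were chosen with earlier results of these data known. Tissue residency holds 4 called genes of 13 tested, against 0.445% of all genes. Its median is 0.43 with all libraries and 0.02 without mouse 2. Immediate early genes have a median of −0.22, and −0.12 without mouse 2.

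Lineage markers were those of CD8+ T cells in all 6 libraries. The 6 T cell markers in the files summed to 5946 to 6119 TPM in cKO and 5406 to 5749 TPM in WT, and none differed by a call. Cd4 was at 0.47 TPM or less. Regulatory T cell markers summed to 1.15 to 3.10 TPM in cKO and 2.09 to 2.49 TPM in WT, with Foxp3 at 0.10, 0.45 and 1.09 TPM in cKO, against 0.08, 0 and 0.20 TPM in WT (log2 2.49, SE 0.911, adjusted p = 0.411). Neutrophil markers summed to 1.16 to 1.89 TPM in cKO and 1.90 to 2.31 TPM in WT, S100a8 and S100a9 being at 0 in each library, and red cell and platelet markers to 0.13 to 6.29 TPM in cKO, with mouse 2 highest, and 0.12 to 0.56 TPM in WT.

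**Figure D4:**
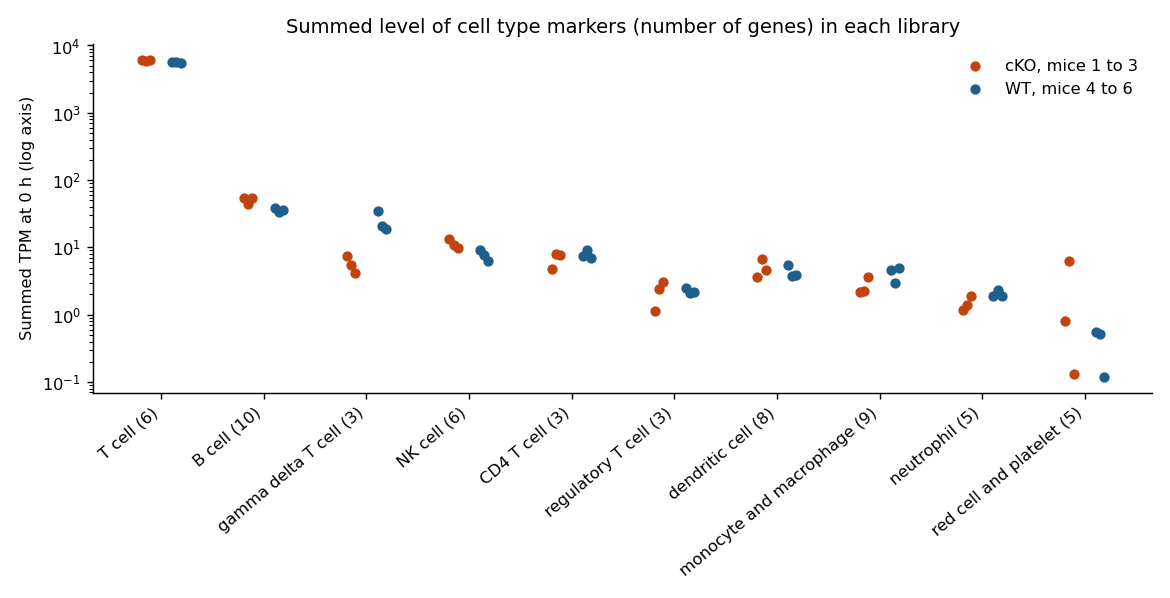
Summed TPM of the markers of 10 cell types at 0 h (log axis), 1 point a library. T cell markers stand at 5406 TPM or more in each. The gamma delta sum is lower in cKO (4.11 to 7.35 TPM) than in WT (18.9 to 34.5 TPM), and most of it is Cd163l1, itself a called gene. The sums of B cell markers (nearly all Cd79b) and NK cell markers (mostly Eomes and Gzma) are higher in cKO, with no marker of either list called.

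The same mice were sampled again after plating, so the 0 h differences could be followed in other libraries of the same animals. Of the 51 genes, 19 were called in the same direction at 4 h, 7 at 8 h and 5 at 24 h, and none in the opposite direction. They were 15 higher and 4 lower at 4 h, 7 higher and 0 lower at 8 h, and 5 higher and 0 lower at 24 h. Of all 11470 genes 0.82% were called at 4 h (0.436% higher and 0.384% lower), 0.183% at 8 h (0.148% and 0.0349%) and 0.105% at 24 h (0.0959% and 0.00872%). Fasl, Cxcr6 and Coro2a were called higher at all 3 later times. For Fasl the log2 difference was 4.595 (SE 0.379), 5.04 (SE 0.346) and 2.96 (SE 0.340) at 4, 8 and 24 h, for Cxcr6 1.84 (SE 0.131), 1.01 (SE 0.127) and 1.24 (SE 0.141), and for Coro2a 2.10 (SE 0.264), 1.75 (SE 0.255) and 1.12 (SE 0.212). Cd86, Itgae, Nt5e and Rcn3 were called again at 4 and 8 h and Car2 and Dennd5a at 4 and 24 h. Those called again at 4 h alone were Ccl5, Cd55, Golm1, Nrp1, Stx1a and 5430427O19Rik among the higher genes and Pdlim4, Cpm, Mme and 5830411N06Rik among the lower. With all 4 libraries of 1 mouse left out, the count of genes called at 0 h and again later was 14 without mouse 1, 30 without mouse 3 and 10 without any other mouse, against 19 with all. The other 32 were called at none of the later times, Slamf6, Junb, Rgs1, Samhd1 and Cd163l1 among them.

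Signs were kept more often than calls. Of the 36 genes higher at 0 h, 36 had a positive value at 4 h, 33 at 8 h and 30 at 24 h, at medians of 0.54, 0.37 and 0.26. Of the 15 lower genes 12, 13 and 10 were negative at those times, at medians of −0.21, −0.35 and −0.15, against medians of all genes of −0.002, −0.027 and 0.006. Some levels also differed between times in both genotypes. Cd163l1, at 4.91 TPM in cKO and 22.6 TPM in WT at 0 h, averaged 1.49 TPM in cKO and 5.98 TPM in WT at 4 h, and its mean was 0.0167 TPM in cKO and 0.10 TPM in WT at 24 h. Rgs1 ran the other way, with 15.5 TPM in cKO and 6.797 TPM in WT at 0 h but 181 TPM in cKO and 175 TPM in WT at 24 h, where its log2 difference was 0.05.

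**Figure D5:**
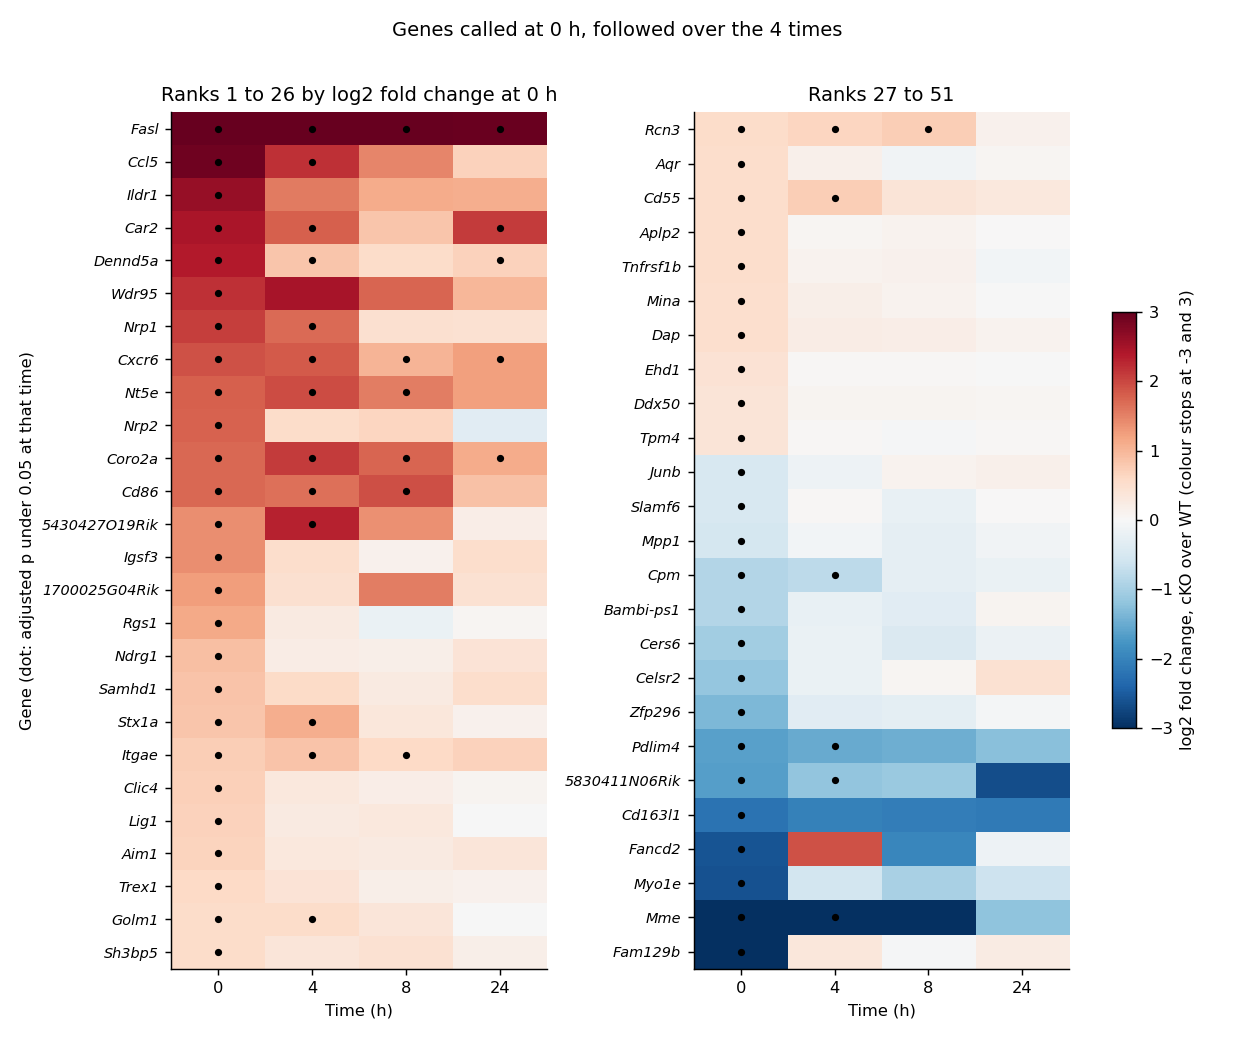
Log2 fold change of cKO over WT at 0, 4, 8 and 24 h (colour) for the 51 genes called at 0 h, ranked by the 0 h value, with a dot where the adjusted p was under 0.05. Fasl, Cxcr6 and Coro2a keep a dot at all 4 times, and most genes of small differences lose it after 0 h.

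Whether a difference was particular to the cells before activation was tested as the 0 h difference minus the mean of those at 4, 8 and 24 h. Dennd5a was the 1 gene called of 11470 (0.00872%), at 1.69 (SE 0.208, adjusted p = 3.62e-05). Its log2 difference was 2.38 at 0 h and 0.82 (SE 0.132), 0.56 (SE 0.135) and 0.69 (SE 0.135) at 4, 8 and 24 h. Both genotypes gained Dennd5a after plating, to 55.2 ± 4.04 TPM in cKO and 30.3 ± 2.99 TPM in WT at 4 h, from the 0 h levels given above (SD, n = 3 each). With mouse as a replicate block 4 genes were called, namely Dennd5a, Ccl5, Lad1 and Ly6c2. For Cxcr6 the value was 0.54 (SE 0.147, adjusted p = 0.311), for Fasl 1.25 (SE 0.565, adjusted p = 0.727), for Junb −0.52 (SE 0.108, adjusted p = 0.122) and for Rgs1 1.11 (SE 0.230, adjusted p = 0.122), so a difference between 0 h and later times did not pass for these genes.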

How the data were processed

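STAR, RSEM, DESeq2 and mm10 are named in the submitters' processing notes; no version or setting is known here. The deposited files list 23420 genes, per the file headers, with the expected count (RSEM's estimate, not always whole), TPM, FPKM and transcript lengths. The expected counts as deposited were rounded and tested with edgeR 4.0.16 in R 4.3.3; the deposited TPM values gave levels, and FPKM was not used. After filterByExpr with the 8 time and genotype groups, 11470 genes remained. With TMM scaling, a single robust quasi-likelihood fit to all 24 libraries, with 1 mean per group (16 residual degrees of freedom), gave the 0 h contrast, the later contrasts and the 0 h difference minus the mean of the later ones. This fit shares 1 estimate of the spread of a gene among all groups. At 0 h replicate libraries differed by a mean chi-square per gene of 7.9 to 9.6 in cKO and 3.6 to 4.7 in WT. Sampling noise alone gives a value near 1, and the effect of the unequal spread on the calls was not tested. Tests were two-sided, with Benjamini-Hochberg adjustment over all genes tested and calls at an adjusted p under 0.05. Each SE was taken as |log2 fold change| over the root of F. The model was first tested on simulated counts.

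Replicates are separate mice per the labels. Same-numbered libraries come from the same animal at other times, and their deviations from the group means correlated at −0.085 to 0.163 (median 0.018, 36 pairs). Mice are nested in genotype, so no fixed block can enter the 0 h comparison, and a random replicate block was tried with limma-voom (limma 3.58.1). Other alternatives were RLE scaling, 2 other filters on low counts, the 6 libraries alone, DESeq2 1.42.0, limma on log2(TPM + 1) and log2(TPM + 0.1), removal of Rn45s, and each library left out.

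The comparison, the gene lists and the naming rule were chosen with earlier results of these data known. The rule named called genes other than gene models, with values per library for those of at least 10 TPM, and Tcf7, Lef1, Cxcr6, Cxcl16, Cd28, Cd80 and Cd86 whatever their result. Up to 4 further members of smallest p were named for each list described, as were genes called for the 0 h minus later difference. Outside the rule, and chosen after their values were seen, are the values per library of called genes under 10 TPM, the 3 called gene models, and Axin2, Gzmb, Cd69, Runx3, Ccr7, Il7r, Eomes, Tbx21 and Cd8a. Marker genes are named as members of the marker lists. Of the 23420 symbols 21737 matched 1 gene of GENCODE (GRCm38). Of the called genes 8 have a span, introns included, that overlaps the span of another tested gene. Unstranded reads from a stretch that both genes share cannot be told apart by strand. Aim1 and Mina had no matched position and were not checked for overlap. Without molecular identifiers, intervals cover counting error only. A few genes are not reported here.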

Additional observations from a re-analysis of the deposited data

Results flagged for a closer look

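The difference between cKO and WT in Dennd5a at 0 h differed from the mean of its differences at 4, 8 and 24 h by 1.69 on the log2 scale (1.686, SE 0.208, edgeR adjusted p = 3.62e-05). It was higher in cKO at all 4 times, by 2.38, 0.82, 0.56 and 0.69 on the log2 scale at 0, 4, 8 and 24 h.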

How the results depend on the processing

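At 0 h 51 genes were called. The count moved to 136 with no filter on low counts, to 84 with DESeq2 and to 88 with limma on log2(TPM + 0.1), and ranged from 20 to 85 with 1 library left out. RLE scaling, the stricter filter, removal of Rn45s and limma on log2(TPM + 1) kept it within 1.5 times, with 51, 46, 49 and 39 of the 51 shared. The 6 libraries alone gave 36 calls, of which 25 were shared. With mouse as a random replicate block limma-voom called 67, and without the block it also called 67, 43 of them shared with the 51 in both fits. Between 18 and 40 of the 51 were kept in the fits without a library. None of the 51 changed sign in any of the 16 settings that tested it.

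For the 0 h difference against the mean of the later ones, 1 gene was called. The count was 38 with no filter, 8 with DESeq2, 4 with mouse as a fixed replicate block and 1 to 3 with a mouse left out. The 19 genes called at 0 h and again later were 10 to 30 with a mouse left out. Tcf7 was called higher in cKO with no filter (0.398) and with the 6 libraries alone (0.328), and with 1 library left out it ran from 0.28 to 0.366 without a call. For Cxcr6 the range was 1.78 to 2.01 and for Fasl 5.00 to 6.59. The cause of these moves was not tested. With 3 mice a group and depths of 6308908 to 9637768 counts, genes under 1 TPM rest on few reads and their folds are imprecise.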

Other observations

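The files also give an abundance-weighted transcript length per gene, which moves when the mix of transcripts changes. Tested were the 1790 genes with a mean of at least 100 counts over the 24 libraries and a length that varied among them. Of these, 1 differed between cKO and WT at 0 h with limma. Socs1, an inhibitor of cytokine signalling, had lengths of 1232, 1219 and 1236 bases in cKO and 1281, 1311 and 1263 bases in WT, a log2 difference of −0.06 (adjusted p = 0.0232), and 91 genes had an unadjusted p under 0.05.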
